A study of Homo sapiens with 14 samples.

Results

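The MYC, MAX and MXD network was followed through 8 genes, chosen by name from the 60683 gene identifiers in the files: MYC, MAX, MXD1, MXD3, MXD4, MXI1, MNT and MLX. Levels were measured by RNA sequencing of 2 human cancer cell lines, A549 (lung) and SUM159 (triple-negative breast), in 7 groups of 2 libraries. A549 cells were untreated, treated for 10 days with 2 μM palbociclib, with 0.5 μM indisulam or with both drugs, or treated for 7 days with 0.5 μM PF-06873600. SUM159 cells were untreated or treated for 7 days with 0.5 μM PF-06873600. Palbociclib inhibits the cell cycle kinases CDK4 and CDK6, PF-06873600 inhibits CDK2 as well, and indisulam is a sulfonamide that brings the splicing factor RBM39 to a ubiquitin ligase for degradation. The study asked which treatments push cancer cells with CDK4/6 inhibition into senescence, and the comparisons below ask how the MYC network RNAs stood in those cells. The 2 lines were grown in different media, so line and medium cannot be told apart. No collection time was given for untreated cells.

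MYC is a basic helix-loop-helix leucine zipper protein that binds DNA only as a dimer with MAX, at the E-box CACGTG and related sites, where it recruits coactivators and raises transcription of genes for ribosome building, metabolism and division. MXD1, MXI1, MXD3, MXD4 and MNT also dimerize with MAX and bind the same sites, but carry SIN3 corepressor complexes with histone deacetylases there. MLX is the hub of a parallel branch, in which it pairs with the glucose-sensing activators MLXIP (MondoA) and MLXIPL (ChREBP) and also with MNT and some MXD proteins. In differentiating and resting cells MYC typically gives way to MXD proteins, while MAX stays steady.

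The network's own promoters were read for the sites that its dimers bind. Windows from 250 bases before to 50 after the start site came from RefSeq (GRCh38.p14), in which 7 of the members had at least 1 window. CACGTG, which is its own reverse complement, was found in 7.26% of all 35116 windows, and CACGNG followed after 5 bases by CNCGNG, a form of the carbohydrate response element bound by MLX dimers, in 0.501%, both strands counted and overlaps between the motifs allowed. Among the members CACGTG lay in the windows of MXD4, MNT and MLX, and the longer motif in 1 of 3 windows of MXI1. The letters CACGTG were not in the windows of MAX, MXD1, MXD3 and MXI1. Of the MLX branch's known targets, ARRDC4 held CACGTG and TXNIP held the longer motif. The stretches around the matches in members and in both targets are shown so that the sites can be set beside the RNA changes below, with the motif in capitals, 5′ to 3′ along the gene's strand.
MXD4 (chr4:2262315-2262359, minus strand): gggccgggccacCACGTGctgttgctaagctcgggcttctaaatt
MNT (chr17:2401221-2401280, minus strand): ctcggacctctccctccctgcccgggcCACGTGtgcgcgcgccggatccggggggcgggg
MLX (chr17:42567023-42567082, plus strand): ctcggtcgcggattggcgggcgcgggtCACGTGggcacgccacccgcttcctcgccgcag
MXI1 (chr10:110210134-110210204, plus strand): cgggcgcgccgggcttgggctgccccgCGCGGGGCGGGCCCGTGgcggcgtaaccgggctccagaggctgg
TXNIP (chr1:145996624-145996694, minus strand): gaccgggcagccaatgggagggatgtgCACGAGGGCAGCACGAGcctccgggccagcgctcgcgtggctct
ARRDC4 (chr15:97960466-97960525, plus strand): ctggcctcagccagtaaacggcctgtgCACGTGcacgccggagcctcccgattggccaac
The first base of the match lay 238 bases before the start site in MXD4, 193 in MNT, 50 in MLX, 70 in MXI1, 88 in TXNIP and 210 in ARRDC4. In MXI1 the motif reads on the opposite strand. Such a match is a description of letters and not evidence of binding.

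Counts on genes summed to between 13060374 and 21149256 per library, and levels are given as CPM, the count scaled to that sum. The study's design text calls the libraries of a group technical duplicates, so every p-value measures only the spread between these libraries. The libraries of untreated A549 differed most, with a chi-square of 9.57 per degree of freedom over genes, followed by untreated SUM159 at 9.05. The other groups lay between 1.61 and 5.04. Summed epithelial markers were 4672 to 5429 CPM in untreated A549 and 699 to 755 in untreated SUM159, and summed mesenchymal markers were 2250 to 2482 and 7333 to 7776 CPM. In A549 the epithelial sum was 7849 to 7949 CPM with palbociclib, 8236 to 8251 with indisulam, 10066 to 10532 with the combination and 11769 to 11845 with PF-06873600, and the mesenchymal sum was 2269 to 2459, 3083 to 3210, 3682 to 3727 and 3016 to 3153 CPM. With PF-06873600 in SUM159 the epithelial sum was 428 to 447 CPM and the mesenchymal sum 17569 to 17680. A sum is weighted to its most abundant genes, and single markers did not all follow it. The median log2 change of the mesenchymal markers in SUM159 was only 0.17 to 0.25 under the alternative settings. In A549 some epithelial markers fell with the combination and with PF-06873600 while the sum rose. The lung alveolar genes NKX2-1, SFTPB and SFTPC were at or under 3 counts in untreated A549, and their sum with NAPSA was 1.09 and 0.733 CPM. PGR was at or under 3 counts in all SUM159 libraries, but ESR1 and ERBB2 were not. The hormone receptor genes ESR1, PGR and ERBB2 summed to 118 to 123 CPM in untreated SUM159 and 127 to 131 with PF-06873600. In untreated A549 they summed to 143 to 166 CPM. Summed proliferation markers (10 genes) were 791 and 849 CPM in untreated A549, 676 to 700 with palbociclib, 681 to 697 with indisulam, 170.5 and 170.3 with the combination and 662 to 687 with PF-06873600. In SUM159 they were 3310 and 3406 CPM untreated and 1280 to 1285 with PF-06873600. The part of these marker sums in the changes below was not tested, and in bulk libraries fewer cells of a kind and less RNA per cell cannot be told apart.

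Members were called for each treatment against untreated cells by edgeR's quasi-likelihood test at an adjusted p under 0.05. A call under some treatments only does not show that the treatments differ in that gene. MLX, for example, had a log2 change of -0.26 with indisulam, which passed, and -0.20 with palbociclib, which did not. The palbociclib and indisulam calls listed here were all lost with only the groups compared. Palbociclib raised MYC and MXD4 and lowered MXD3, so 3 of 8 genes passed where 15.7% of all genes tested did. Indisulam raised MYC and MXI1 and lowered MLX, again 3 of 8, against 45.5% of all genes. The combination raised MXD1, MXD4 and MXI1 and lowered MXD3 and MLX, 5 of 8 against 65.2%. PF-06873600 moved 6 of 8 genes in A549, against 56.3%, with MYC, MXD1 and MXD4 higher and MXD3, MXI1 and MLX lower. In SUM159 the same compound moved 7 of 8, against 73.7%, with MXD4, MXI1, MAX and MXD1 higher and MYC, MNT and MLX lower. These shares were not tested against their background, and the account below rests on the named genes and their sizes. The plot of levels shows all 14 values of each gene.

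**Figure D1:**
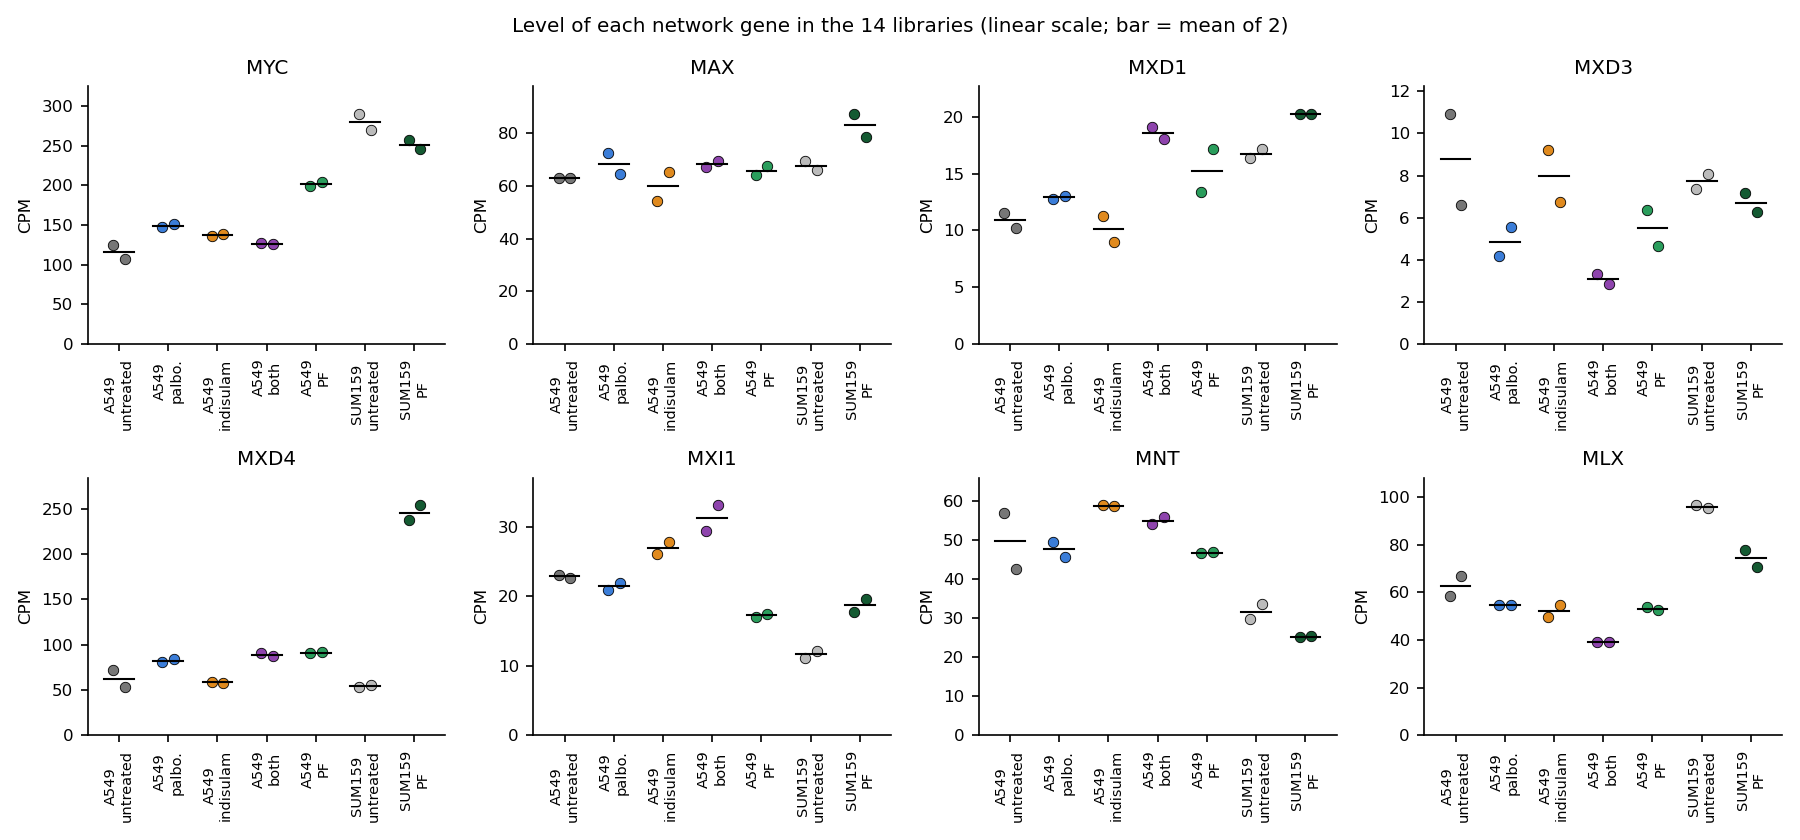
CPM of each of the 8 genes in every library (points, 2 per group; bars, their mean), on linear axes from 0. MYC was lowest in untreated A549 and highest in untreated SUM159, and MXD4 in the 2 SUM159 libraries with PF-06873600 (238 and 254 CPM) lay far above its other 12 values.

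MYC (ENSG00000136997, chromosome 8, 127735434 to 127742951, plus strand), the network's activator, was measured at 124 and 107 CPM in untreated A549, 147 and 151 with palbociclib, 137 and 139 with indisulam, 127 and 126 with the combination, and 199 and 204 with PF-06873600. In SUM159 it was 291 and 270.1 CPM untreated and 257 and 246 with PF-06873600. The 7 groups, which differed in dose and time, fell in an order without overlap between neighbours. It ran from untreated A549 at the bottom through the combination, indisulam and palbociclib to PF-06873600, with both SUM159 groups above. MYC rose by a log2 fold change of 0.36 ± 0.07 (SE) with palbociclib (adjusted p = 0.00178) and by 0.25 ± 0.07 with indisulam (adjusted p = 0.00719). The palbociclib call was lost with only the groups compared (adjusted p = 0.0503). The indisulam value was 0.15 without the second untreated library (adjusted p = 0.043), and its call was lost with TMM scaling (adjusted p = 0.0506), with DESeq2 (adjusted p = 0.0765) and with only the groups compared (adjusted p = 0.0603). With both drugs the change was 0.13 ± 0.07 and did not pass (adjusted p = 0.103), although it reached 0.24 without the first untreated library (adjusted p = 0.00145).

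MYC thus stood lower with both drugs than the single-drug changes add up to. The interaction of palbociclib and indisulam on the log2 scale was -0.48 ± 0.09 for MYC (adjusted p = 0.00155), and it passed under all 14 alternatives, from -0.38 to -0.59. Across the network 2 of 8 genes passed the interaction test, MYC and MXD1, against 25.2% of all genes. Directly against palbociclib alone, where 4 of 8 genes passed and 60.4% of all genes did, MYC was lower in the combination by a log2 change of -0.24 ± 0.07 (adjusted p = 0.00681). Against indisulam alone, where 4 of 8 genes and 46.0% of all genes passed, MYC's change was -0.12 ± 0.07 and did not (adjusted p = 0.157).

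The MYC response to PF-06873600 differed between the lines. In A549 it rose by 0.80 ± 0.07 (adjusted p = 1.24e-07), a 1.74-fold higher level in both treated libraries. In SUM159 the change was -0.16 ± 0.06 (adjusted p = 0.0251), a small fall that no longer passed when either treated library was left out (adjusted p = 0.0979 and 0.275) and that was -0.10 without the first untreated library. The difference between the responses, SUM159 minus A549, was -0.96 ± 0.09 (adjusted p = 3.14e-08), and 3 of 8 genes passed this test, MYC, MXD4 and MXI1, against 53.0% of all genes. Before treatment MYC was 1.28 ± 0.06 higher in SUM159 on the log2 scale (adjusted p = 7.28e-13), where 5 of 8 genes and 78.7% of all genes differed between the lines. The antisense gene CASC11, which shares 194 bases of exon with MYC on the other strand, never exceeded 0.877 CPM.

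MAX (ENSG00000125952, chromosome 14, 65006174 to 65102695, minus strand), the shared dimer partner, was the steadiest member in A549. It was measured at 63.2 and 63.1 CPM in untreated A549, 72.6 and 64.4 with palbociclib, 54.4 and 65.2 with indisulam, 67.3 and 69.5 with the combination, and 64.0 and 67.5 with PF-06873600. None of the 4 treatments gave a MAX change past the threshold in A549, the log2 changes lying between -0.08 and 0.12 with adjusted p of 0.248 to 0.582. In SUM159 MAX went from 69.4 and 66.1 CPM untreated to 87.5 and 78.5 with PF-06873600, a rise of 0.29 ± 0.06 (adjusted p = 0.000907). FNTB, which shares exon sequence with MAX on the other strand, changed by -0.51 ± 0.12 there. The difference between the lines in the MAX response, 0.23 ± 0.12, did not pass (adjusted p = 0.104), so the rise is not shown to differ from A549.

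MXD4 (ENSG00000123933, chromosome 4, 2247432 to 2262109, minus strand), the MXD protein most abundant in RNA here, had the largest change of any member. In SUM159 it went from 52.7 and 55.8 CPM untreated to 238 and 254 with PF-06873600, and the groups were far apart. The rise was 2.18 ± 0.06 on the log2 scale (4.53-fold, adjusted p = 3.32e-13) and stayed between 2.13 and 2.23 under the 9 alternatives. In A549 MXD4 was 71.8 and 52.8 CPM untreated, 80.7 and 83.9 with palbociclib, 58.6 and 58.0 with indisulam, 90.9 and 87.1 with the combination, and 90.4 and 91.4 with PF-06873600. Indisulam alone left MXD4 inside the untreated range, and the 3 treatments with a CDK inhibitor placed it above both untreated libraries.

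These rises in A549 were 0.40 ± 0.10 with palbociclib (adjusted p = 0.0151), 0.51 ± 0.10 with the combination (adjusted p = 0.000442) and 0.55 ± 0.10 with PF-06873600 (adjusted p = 0.000354). The untreated libraries differed in MXD4, and without the second of them the rises were 0.20, 0.31 and 0.34. Without the first, the palbociclib value was 0.64, and without the second palbociclib library it was 0.37. The palbociclib call did not hold there, nor with only the groups compared (adjusted p = 0.12). Against indisulam alone MXD4 was 0.61 ± 0.10 higher in the combination (adjusted p = 0.00021), and against palbociclib alone the change was 0.11 ± 0.10 (adjusted p = 0.345). The response to PF-06873600 was 1.63 ± 0.13 larger in SUM159 than in A549 (adjusted p = 3.45e-09). The untreated lines differed by -0.20 ± 0.10 in MXD4, which did not pass (adjusted p = 0.0663).

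**Figure D2:**
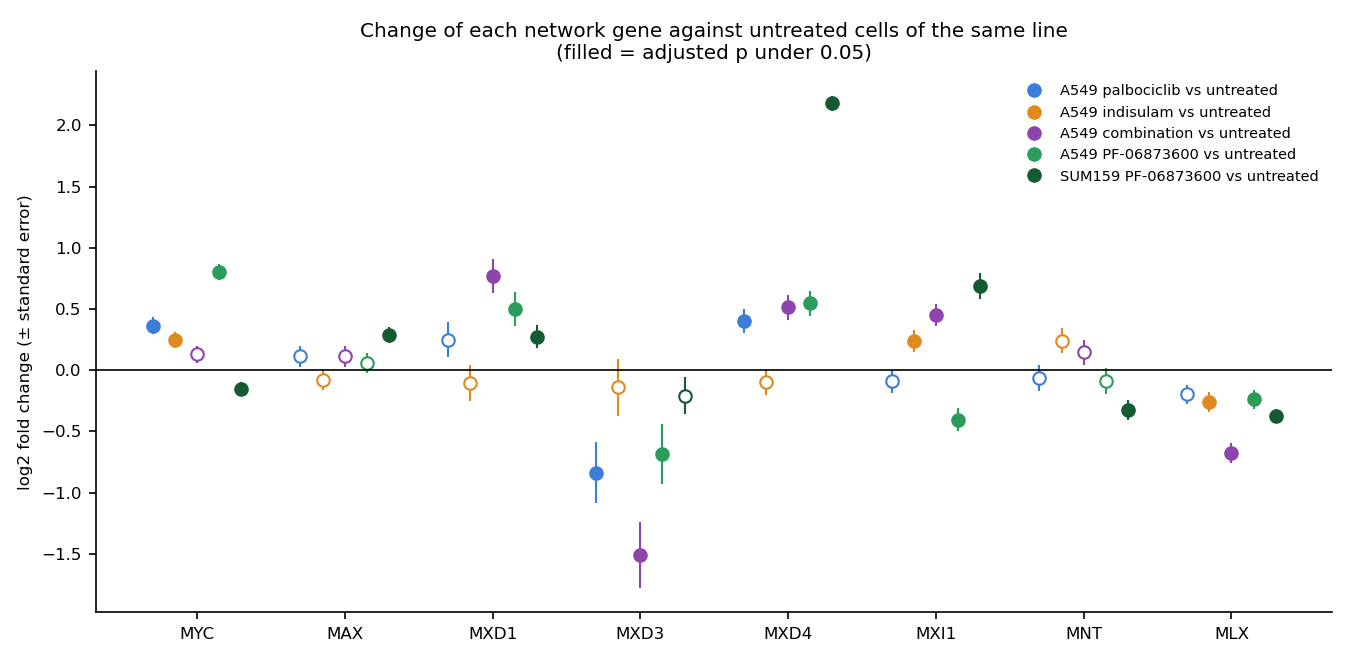
Log2 fold change of each gene against untreated cells of the same line (points; vertical lines, standard error; filled points passed at an adjusted p under 0.05). MXD4 in SUM159 with PF-06873600 stood at 2.18, MYC with PF-06873600 at 0.80 in A549 and -0.16 in SUM159, and MXD3 with the combination at -1.51.

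MXD1 (ENSG00000059728, chromosome 2, 69897688 to 69942945, plus strand), known as an MXD protein induced on differentiation, was highest in A549 under both drugs. It was 11.6 and 10.2 CPM in untreated A549, 12.8 and 13.1 with palbociclib, 11.3 and 8.99 with indisulam, 19.1 and 18.0 with the combination, and 13.4 and 17.1 with PF-06873600. The combination rose above both single drugs, by 0.77 ± 0.14 against untreated (adjusted p = 0.000176), 0.52 ± 0.13 against palbociclib (adjusted p = 0.00358) and 0.88 ± 0.14 against indisulam (adjusted p = 0.000126). In neither single drug did MXD1 pass, with 0.25 ± 0.14 for palbociclib and -0.10 ± 0.15 for indisulam.

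The excess over the sum of the single drugs was 0.63 ± 0.20 for MXD1 (adjusted p = 0.0323). This call was not stable, with an adjusted p of 0.0847 under DESeq2. It was lost when any of 6 libraries was left out, the first untreated A549, either palbociclib, the second indisulam or either combination library, with values of 0.47 to 0.67 and adjusted p of 0.0665 to 0.148. With PF-06873600 MXD1 rose by 0.50 ± 0.14 in A549 (adjusted p = 0.00732), but by 0.30 without the second treated library (adjusted p = 0.156). In SUM159, where it was 16.3 and 17.2 CPM untreated and 20.2 and 20.3 treated, it rose by 0.27 ± 0.09 (adjusted p = 0.0157). That call was lost with DESeq2 (adjusted p = 0.235) and without either treated library. SNRNP27 shares 237 bases of exon with MXD1 on the same strand. It rose by 0.62 ± 0.12 in the combination and by 0.69 ± 0.12 with indisulam alone, and the combination differed from indisulam by -0.08. Its part in the MXD1 counts was not tested.

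MXI1 (ENSG00000119950, chromosome 10, 110207605 to 110287365, plus strand), also called MXD2, moved in opposite directions with PF-06873600 in the lines. In A549 it was 23.0 and 22.6 CPM untreated and 17.0 and 17.5 with PF-06873600, a fall to below both untreated libraries, with a log2 change of -0.40 ± 0.09 (adjusted p = 0.00223). In SUM159 it was 11.1 and 12.1 CPM untreated and 17.8 and 19.6 treated, a rise of 0.69 ± 0.11 (adjusted p = 3.93e-05). The difference between the responses was 1.09 ± 0.14 (adjusted p = 1.9e-06), and in both lines the treated cells ended near the same level. Palbociclib left MXI1 at 20.9 and 21.9 CPM, a change of -0.09 ± 0.09 that did not pass.

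MXI1 was 26.1 and 27.8 CPM with indisulam and 29.4 and 33.1 with the combination, both above the untreated libraries. The combination rose by 0.45 ± 0.09 against untreated (adjusted p = 0.000399) and by 0.54 ± 0.09 against palbociclib (adjusted p = 0.000103). With indisulam alone the rise was 0.24 ± 0.09 (adjusted p = 0.0426), and leaving out any of the 4 libraries compared ended that call, with values of 0.19 to 0.28. The call was also lost with TMM scaling (adjusted p = 0.171), with DESeq2 (adjusted p = 0.399) and with only the groups compared (adjusted p = 0.117).

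MXD3 (ENSG00000213347, chromosome 5, 177301461 to 177312757, minus strand) is the MXD member known to be expressed in dividing cells, and it fell with CDK inhibition in A549. It was 10.9 and 6.60 CPM in untreated A549, 4.16 and 5.55 with palbociclib, 9.19 and 6.74 with indisulam, 3.33 and 2.83 with the combination, and 6.36 and 4.64 with PF-06873600. The untreated libraries differed widely, but all 6 libraries with a CDK inhibitor lay below both. The fall in the combination, -1.51 ± 0.27 against untreated (adjusted p = 0.000186) and -1.37 ± 0.27 against indisulam (adjusted p = 0.000886), passed under every one of its 11 alternatives.

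The MXD3 falls of -0.84 ± 0.25 with palbociclib (adjusted p = 0.0332) and -0.69 ± 0.24 with PF-06873600 (adjusted p = 0.0268) were less firm. Both falls missed the threshold with DESeq2 (adjusted p = 0.0549 and 0.0744) and with only the groups compared (adjusted p = 0.1 and 0.0549). Without the first untreated library they were -0.43 and -0.28 and did not pass (adjusted p = 0.243 and 0.339). The palbociclib call was also lost without either palbociclib library (adjusted p = 0.192 and 0.0563), and the other without the second PF-06873600 library (adjusted p = 0.236). Against palbociclib alone the combination's change of -0.67 ± 0.29 missed the threshold (adjusted p = 0.0616) and passed under 6 of 11 alternatives. Of these 6, the replicate block with palbociclib numbers crossed was chosen after seeing the data. Without the first palbociclib library the change was -0.85. SUM159 had 7.36 and 8.08 CPM untreated and 7.19 and 6.24 treated, a change of -0.21 ± 0.15 that did not pass (adjusted p = 0.218). RAB24, on the same strand, shares 926 bases of exon with MXD3 and had 1.22 to 4.28 CPM. PRELID1, on the other strand, shares 1148 bases and had 101 to 209 CPM. In the combination it changed by -0.40 ± 0.08 against untreated (adjusted p = 0.000285), -0.33 ± 0.08 against palbociclib and -0.26 ± 0.08 against indisulam. With palbociclib alone its change of -0.08 ± 0.07 did not pass, and with PF-06873600 in A549 it rose by 0.20 ± 0.07. Its part in the MXD3 counts was not tested.

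MNT (ENSG00000070444, chromosome 17, 2384073 to 2401104, minus strand), a larger repressor that is expressed in resting and dividing cells alike, did not pass in any A549 comparison. It was 57.1 and 42.5 CPM in untreated A549, 49.6 and 45.8 with palbociclib, 59.0 and 58.7 with indisulam, 54.2 and 55.9 with the combination, and 46.6 and 46.9 with PF-06873600. The treated values lay inside or just above the range of the untreated libraries, which limits what can be seen of MNT in this line. Leaving out the first or second untreated library gave changes of opposite sign with palbociclib (0.16 and -0.26), the combination (0.37 and -0.05) and PF-06873600 (0.14 and -0.29), and raised the indisulam value to 0.47 without the first (adjusted p = 6.48e-05).

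In SUM159 MNT was lower, at 29.8 and 33.6 CPM untreated, and fell further to 25.3 and 25.4 with PF-06873600. That fall was -0.32 ± 0.08 (adjusted p = 0.00275) and passed under all 9 alternatives. The untreated lines differed by -0.65 ± 0.10 (adjusted p = 1.05e-05), or -0.43 without the first untreated A549 library.

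MLX (ENSG00000108788, chromosome 17, 42567072 to 42573239, plus strand), the hub of the parallel branch, was lower in every treated group than in untreated cells of its line. It was 58.3 and 67.0 CPM in untreated A549, 54.8 and 54.6 with palbociclib, 49.8 and 54.8 with indisulam, 39.3 and 39.1 with the combination, and 53.8 and 52.6 with PF-06873600. The combination stood well below the single drugs, with -0.68 ± 0.08 against untreated (adjusted p = 3.42e-06), -0.48 ± 0.08 against palbociclib (adjusted p = 0.000125) and -0.42 ± 0.08 against indisulam (adjusted p = 0.000706). In SUM159 MLX went from 96.6 and 95.4 CPM to 77.7 and 70.8, a fall of -0.37 ± 0.06 (adjusted p = 4.8e-05).

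The smaller MLX falls in A549 depended on single libraries and on the settings. With only the groups compared, the calls were lost for indisulam (adjusted p = 0.0775) and for PF-06873600 (adjusted p = 0.0587). The PF-06873600 call was also lost with DESeq2 (adjusted p = 0.111). The change with indisulam was -0.26 ± 0.08 (adjusted p = 0.014), but -0.15 without the second untreated library (adjusted p = 0.113) and -0.19 without the first indisulam library (adjusted p = 0.137). With PF-06873600 it was -0.24 ± 0.08 (adjusted p = 0.018), but -0.13 without the second untreated library (adjusted p = 0.155), and the call was lost without either treated library (adjusted p = 0.0635 and 0.107). With palbociclib the change was -0.20 ± 0.08 and did not pass, except without the first untreated library (-0.29, adjusted p = 0.00799). PSMC3IP, which overlaps 775 bases of MLX exon on the other strand, changed by -1.56 ± 0.19 in the combination and by -0.77 ± 0.07 in SUM159, but rose by 0.78 ± 0.15 in A549 with PF-06873600, and its part in the MLX counts was not tested.

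To set the activator beside its competitors, levels were divided by the length of each gene's exons (CPM per kb). That length was the union of all annotated exons, such as 6109 bases for MYC and 8701 for MNT. It is not the length of the transcripts present in these cells. The ratios, the shares and the order of genes below therefore depend on the annotation. MYC RNA relative to the sum of MXD1, MXD3, MXD4, MXI1 and MNT was 0.812 and 0.906 in untreated A549, 1.01 in both palbociclib libraries, 0.954 and 0.999 with indisulam, 0.739 and 0.734 with the combination, and 1.31 and 1.32 with PF-06873600. The combination (10 days) thus held the lowest ratio of the A549 groups and PF-06873600 (7 days) the highest, across groups unlike in dose and time. In SUM159 the ratio went from 2.78 and 2.40 untreated to 0.931 and 0.846 with PF-06873600, although MYC itself was nearly level at 40.3 to 47.6 CPM per kb. The sum of the 5 repressors rose from 17.1 and 18.4 to 45.2 and 47.7 CPM per kb there, and MXD4 made up 44.9% and 44.03% of it before and 76.5% and 77.5% after treatment. These are RNA ratios from 2 libraries a group and were given no test, and MAX, at 8.69 to 13.99 CPM per kb, was below MYC in every library.

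**Figure D3:**
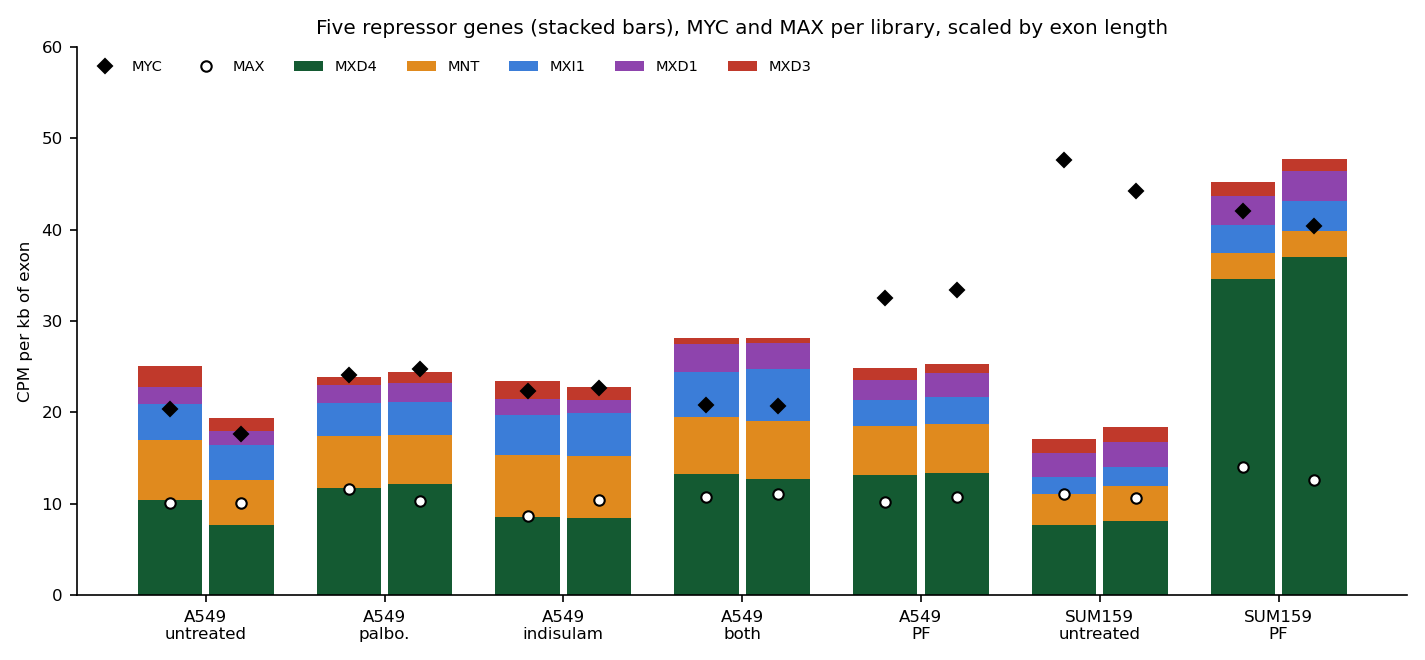
Level per kb of exon (union of all annotated exons) in each library, with the 5 repressor genes as stacked bars, MYC as diamonds and MAX as open circles. MYC lay above the repressor sum in A549 with PF-06873600 and in untreated SUM159, and below it in the combination and in SUM159 with PF-06873600, where MXD4 filled most of the bar.

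Genes that MYC is known to activate moved in opposite directions with PF-06873600 in the lines. The nucleolar list (30 genes of ribosome building) had 29 lower and 0 higher in SUM159 with PF-06873600, with a median log2 change of -1.21 against 0.02 for all genes, where MYC's own change was -0.16. In A549 with PF-06873600, where MYC rose, 19 were higher and 3 lower, with a median of 0.40 against -0.01 for all genes. Of all genes tested 28.5% were higher in that comparison, and 35.6% were lower in SUM159. The difference between the lines passed for 29 of 30 genes, all with the lower response in SUM159 (median -1.54). Under the alternatives 28 or 29 were lower in SUM159, and 17 to 21 were higher and 2 to 4 lower in A549.

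With the combination 14 nucleolar genes were lower, where 30.0% of all genes were, and 5 higher (median -0.14 against 0.05 for all genes), and against indisulam alone 16 were lower and 0 higher (median -0.21, 9 to 18 lower under the alternatives). Palbociclib alone gave 3 higher and 2 lower of 30 and indisulam alone 8 higher and 3 lower, with medians of 0.05 and 0.09, and these shares were near or under the 15.7% and 45.5% of all genes called. These small counts moved with the settings, to 0 to 7 higher for palbociclib and 4 to 11 for indisulam. FBL, which encodes the methyltransferase fibrillarin, fell from 362 and 373 CPM in untreated A549 to 144 and 139 in the combination (-1.38 ± 0.05, adjusted p = 1.7e-11) and from 237 and 225 in untreated SUM159 to 44.02 and 48.3 (-2.32 ± 0.06). It also fell in A549 with PF-06873600 (-0.61 ± 0.05), against the direction of most of its list. EXOSC5, a subunit of the RNA exosome, and NPM1, the abundant nucleolar chaperone, changed by -1.23 ± 0.08 and -0.74 ± 0.07 in the combination.

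**Figure D4:**
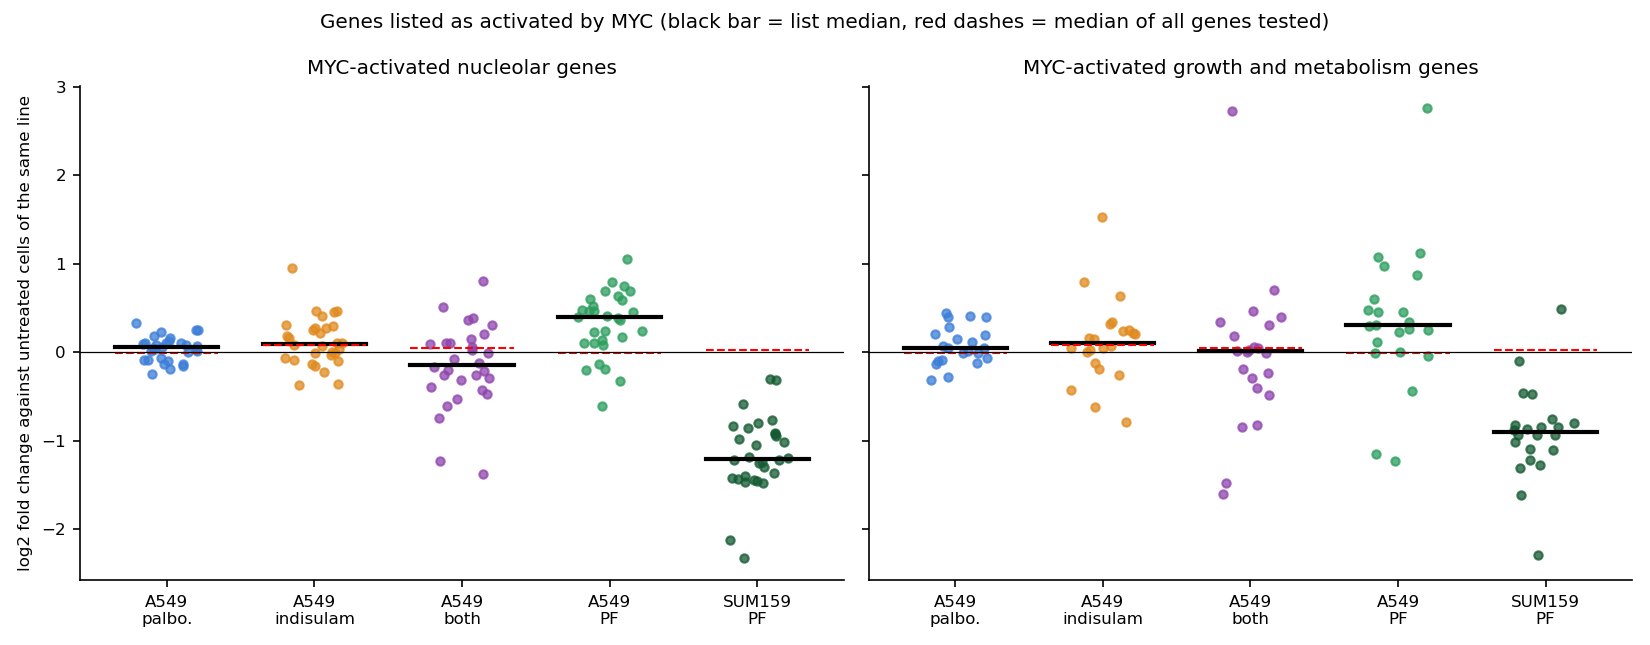
Log2 fold change against untreated cells of the same line for each gene of both lists of MYC-activated genes (points), with the list median (black bar) and the median of all genes tested (red dashes). In A549 with PF-06873600 the medians were 0.40 and 0.30, and in SUM159 they were -1.21 and -0.91.

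The list of 22 MYC-activated growth and metabolism genes also had most members lower in SUM159 and most higher in A549 with PF-06873600. In SUM159 with PF-06873600, 20 were lower, where 35.6% of all genes were, and 1 higher (median -0.91). In A549 with the same compound 15 were higher, where 28.5% of all genes were, and 3 lower (median 0.30). The combination gave 5 higher and 8 lower of 22, a share under the 65.2% of all genes called, and its median of 0.01 against 0.05 for all genes ran from -0.12 to 0.013 under the alternatives. The folate-pathway enzymes SHMT2 and MTHFD2 did not rise with most of their list in A549. SHMT2, the mitochondrial serine hydroxymethyltransferase, fell from 568 and 548 CPM untreated to 466 and 451 with palbociclib, 329 and 319 with indisulam, 187 and 180.3 with the combination and 237 and 238 with PF-06873600. MTHFD2, the next enzyme of the pathway, changed by -1.48 ± 0.06 in the combination and -1.15 ± 0.06 with PF-06873600, but in SUM159 its change of -0.10 ± 0.06 did not pass (adjusted p = 0.11). HK2, the hexokinase of proliferating cells, rose in A549 from 0.612 and 0.600 CPM to 3.76 and 4.31 in the combination, and fell in SUM159 from 110.4 and 109 CPM to 63.1 and 66.9.

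Among 7 cell cycle genes listed as MYC-activated, 5 were lower and 2 higher in the combination (median -0.41), where 30.0% of all genes were lower, and 3 to 5 were lower under the alternatives. All 7 were higher in A549 with PF-06873600 (median 1.49), where 28.5% of all genes were, and 5 to 7 were higher under the alternatives, with medians of 0.82 to 1.61. E2F2, a transcription factor of S-phase entry, went from 7.41 and 8.67 CPM in untreated A549 to 0.993 and 1.09 in the combination (-2.93 ± 0.20) and was 10.2 and 10.02 with PF-06873600. CCND2, the gene of cyclin D2, had 0 counts in both untreated A549 libraries, and was at least 10.5-fold higher in the combination and at least 6.82-fold higher with PF-06873600 against the 3-count floor per library. Both medians were the same with CCND2 set at these bounds. TERT, the telomerase catalytic subunit, was 0.748 and 0.467 CPM untreated, 0.142 and 0.193 in the combination and 2.99 and 2.04 with PF-06873600, all low levels.

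Of the genes that MYC is known to repress, CDKN1A, the gene of the CDK inhibitor p21, rose in all 5 treatments. It was 39.2 and 43.7 CPM in untreated A549, 56.0 and 54.3 with palbociclib, 377 and 383 with indisulam, 683 and 666 with the combination, and 504 and 523 with PF-06873600. In SUM159 it went from 50.5 and 44.8 to 97.4 and 94.6 CPM (1.01 ± 0.07, adjusted p = 2.7e-09). GADD45A, a stress-response gene, rose in the combination by 1.35 ± 0.09 and NDRG1 by 0.83 ± 0.06, while CDKN1B, the gene of p27, changed by -1.30 ± 0.08 and NDRG2 by -0.85 ± 0.09. Of the 5 genes tested the combination thus gave 3 higher and 2 lower (median 0.83), whereas palbociclib gave 1 higher and 4 lower (median -0.37) and PF-06873600 in A549 2 higher and 3 lower (median -0.69). Indisulam gave 2 higher and 2 lower (median -0.13). In SUM159, with 4 tested, 2 were higher and 1 lower (median 0.28). Of all genes, 65.2% were called in the combination, 15.7% with palbociclib, 45.5% with indisulam, 56.3% with PF-06873600 in A549 and 73.7% in SUM159. The palbociclib count of lower genes moved with the settings, and its median ran from -0.37 to -0.28. CDKN2B, the sixth, had at most 1 count in any library.

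The cofactors of the network were tested as well. Of 10 MYC coactivators, 9 were lower in SUM159 with PF-06873600 (median -0.96 against 0.02 for all genes), where 35.6% of all genes were. In A549 with that compound 4 coactivators were higher and 3 lower, where 56.3% of all genes were called. In the combination, where 30.0% of all genes were lower, 2 coactivators were, the acetyltransferase KAT5 (-0.49 ± 0.08) and the AAA ATPase RUVBL2 (-0.32 ± 0.09). Of 8 genes of the MXD and MNT corepressor complexes, 3 were higher and 3 lower in the combination, where 65.2% of all genes were called. SIN3B, a scaffold that MXD proteins bind, rose there from 30.5 and 22.7 to 51.5 and 54.1 (0.99 ± 0.12). SIN3B also rose in SUM159 with PF-06873600, from 60.7 and 68.7 to 99.4 and 100.2 CPM, and SAP30 fell in both (-0.80 ± 0.15 and -0.94 ± 0.09).

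Genes that set the life of MYC protein (9 in the list) gave 3 higher and 4 lower in the combination and 1 higher and 6 lower in SUM159 with PF-06873600, near the 65.2% and 73.7% of all genes called. CIP2A, which protects MYC from the phosphatase PP2A, was 21.9 and 26.1 CPM in untreated A549 and 30.7 and 36.4 with palbociclib (0.49 ± 0.11), but 10.3 and 12.5 in the combination (-1.07 ± 0.13). AURKA, a mitotic kinase that stabilizes MYC family proteins, changed by -0.95 ± 0.10 and SKP2, a ubiquitin ligase subunit that targets MYC and p27, by -1.05 ± 0.11 in the combination. Both are also cell cycle genes, and a link of their falls to those of the proliferation markers was not tested. Of the proliferation markers, 10 of 10 were lower in the combination and in SUM159 with PF-06873600. There TOP2A, the replication-linked topoisomerase, changed by -2.93 ± 0.07 and -1.31 ± 0.06. BIRC5 changed by -2.80 ± 0.10 and -1.44 ± 0.05, and CDK1 by -2.74 ± 0.13 and -0.73 ± 0.05. Of all genes, 30.0% were lower in the combination and 35.6% in SUM159 with PF-06873600. In A549 with PF-06873600 2 of these markers were higher and 7 lower, where 56.3% of all genes were called. Protein levels were not measured.

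Of the MLX branch, the targets TXNIP and ARRDC4 held a sharp contrast between the lines, which MLX and the target KLF10 did not share. TXNIP, a restraint on glucose uptake and the best known target of MLX with MLXIP, was 85.0 and 87.1 CPM in untreated A549, 28.6 and 28.0 with palbociclib, 3.18 and 1.72 with indisulam, 2.69 and 1.93 with the combination, and 7.04 and 8.66 with PF-06873600. Every treated A549 library thus lay below the untreated ones, with log2 changes of -1.60 ± 0.11, -5.14 ± 0.16, -5.22 ± 0.16 and -3.44 ± 0.13. In SUM159 it went from 61.1 and 62.8 CPM to 536 and 551 with PF-06873600, a rise of 3.13 ± 0.06 (adjusted p = 9.5e-15). The difference between the responses was 6.57 ± 0.13 (adjusted p = 9.8e-17).

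ARRDC4, an arrestin-family relative of TXNIP, kept that contrast at lower levels. It was 6.86 and 7.20 CPM in untreated A549, 3.78 and 3.23 with palbociclib, 0.484 and 0.264 with indisulam, 2.55 and 1.74 with the combination, and 3.83 in both libraries with PF-06873600. In SUM159 it went from 8.93 and 8.08 to 97.0 and 93.7 CPM (3.48 ± 0.08). Indisulam thus lowered ARRDC4 more than the combination did, with a difference of 2.49 ± 0.37 (adjusted p = 7.7e-05), whereas TXNIP did not differ detectably between them (-0.08 ± 0.28, adjusted p = 0.83). KLF10, the last gene of this list, rose with indisulam and the combination (0.48 ± 0.07 and 0.66 ± 0.07), and in SUM159 its change was 0.04 ± 0.06.

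MLX itself fell in both lines, so its RNA did not share the contrast of TXNIP and ARRDC4. MLXIP was 93.1 to 104 CPM in untreated, palbociclib, indisulam and PF-06873600 libraries of A549 and rose to 123 and 126 in the combination (0.33 ± 0.06, adjusted p = 0.00036). MLXIPL did share the contrast, falling in A549 with PF-06873600 from 12.4 and 8.0 to 3.06 and 2.66 CPM (-1.84 ± 0.24) and rising in SUM159 from 0.482 and 1.32 to 4.21 and 4.63 (2.31 ± 0.31). Its SUM159 levels were low, with untreated libraries far apart, and the rise was not called under every alternative. Of the other relatives, MYCN stayed at or under 0.236 CPM, MYCL fell in A549 with indisulam (-0.84 ± 0.22), with the combination (-0.79 ± 0.22) and with PF-06873600 (-1.74 ± 0.25) from 4.76 and 4.93 CPM untreated, and MGA, the largest MAX partner, changed by -0.26 ± 0.09 in the combination and -0.52 ± 0.09 in SUM159.

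**Figure D5:**
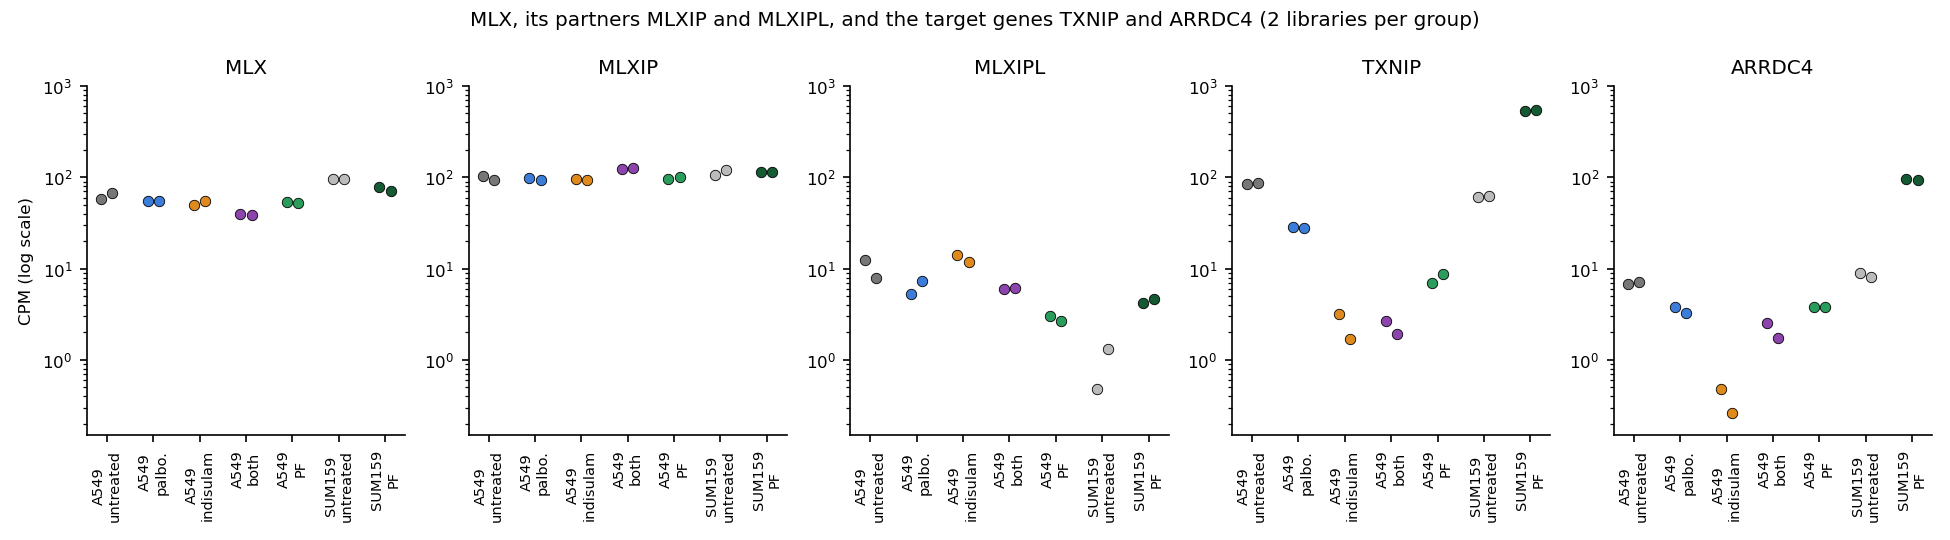
CPM of MLX, its partners MLXIP and MLXIPL, and the targets TXNIP and ARRDC4 in each library (points, 2 per group; log axis). TXNIP spanned from 1.72 CPM in A549 with indisulam to 551 in SUM159 with PF-06873600, while MLX ran from 39.1 to 96.6 CPM.

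Other genes resembled the members over the 5 changes against untreated cells of the same line, by the root mean square of the log2 differences among 9645 or 9646 genes of at least 10 CPM on average. For MYC these were ZNF324 (0.088), TARBP1 (0.10) and MSRB1 (0.10), and for MXD4 CYBA (0.11), MRC2 (0.14) and AK4 (0.16). For MXD3 the nearest were farther off, FKBP5 (0.27), STMN1 (0.29) and C12orf57 (0.31). The 4 A549 changes share their untreated libraries, and the measure is a description with no test.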

How the data were processed

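RNA of 14 libraries was prepared with a stranded mRNA kit and read single-end. The submitters' processing notes name GRCh38, the aligner HISAT2 2.2.1 and the read counter HTSeq. The annotation release and strand setting are not given in the sources used here. The authors deposited raw counts per Ensembl identifier for each library, without normalization, and 3.55% to 4.21% of counted plus ambiguous reads were ambiguous between genes, so overlapping genes may lose reads. Symbols of 60370 of 60683 identifiers came from GENCODE 44. Summary lines naming no gene were left out of library sizes.

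Groups came from the sample labels. CPM was the count divided by the library's total on genes. Genes kept by filterByExpr (15780 in A549, 15055 in SUM159, 17279 in both lines) were tested with the quasi-likelihood F test of edgeR 4.0.16 (R 4.3.3), scaled by total count, with Benjamini-Hochberg adjustment at 0.05. The 10 A549 libraries shared 1 fit, the 4 SUM159 libraries another, and all 14 a fit for differences between the lines. Palbociclib and PF-06873600 differed in dose and time and were not tested against each other. Standard errors are the log2 fold change over the square root of F. With 2 libraries a group an exact permutation test cannot go below p = 0.333. Alternatives were TMM scaling, DESeq2 1.42.0, testing all genes however low, a minimum mean of 50 counts, fits of only the groups compared, a replicate block, and each library left out. In the A549 fit the alternatives also held a replicate block with the palbociclib numbers crossed, chosen after seeing the data. The scripts were tested on simulated data. The floor was 3 counts, 0.142 to 0.230 CPM, and covers counting error only.

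All 8 members were named. Of each other list, the 3 genes with the largest change in the combination past the threshold were named, and whole lists of 6 or fewer, except that some of these genes are not reported here. Members and lists were chosen with earlier results of these data known. CCND2 bounds and list counts under each alternative were added after seeing the data.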

Additional observations from a re-analysis of the deposited data

Results flagged for a closer look

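Of the members, 3 responded differently to PF-06873600 in SUM159 and A549 by the interaction test of edgeR (adjusted p under 0.05). For MXD4 the difference in log2 fold change, SUM159 minus A549, was 1.63, for MXI1 it was 1.09 and for MYC -0.96. MXD4 rose in both lines, and MXI1 fell in A549 and rose in SUM159. MYC rose in A549, and its change in SUM159, -0.16, did not pass without either treated library (adjusted p = 0.0979 and 0.275). The 3 differences between the lines passed under all 13 alternatives. Line and medium cannot be told apart.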

How the results depend on the processing

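Of the 10 counts of all genes past the threshold, 1 moved by over 1.5 times: palbociclib against untreated A549 gave 2478 genes, 1551 with DESeq2, 949 with only the groups compared and 1301 to 3331 without a library. The members past the threshold went from 3 to 0 with only the groups compared for palbociclib and for indisulam, from 3 to 1 with DESeq2 or TMM for indisulam, and from 2 to 1 with DESeq2 for the interaction. Without a library they were 1 to 4 for palbociclib, 1 to 3 for indisulam, 1 to 4 for the interaction, 3 to 6 for PF-06873600 in A549 and 3 to 5 for the difference between lines. The cause was not tested. A group cut to 1 library was assumed to vary like the others.

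Changes that turned sign were of members that did not pass. MAX in the combination against palbociclib was -0.092 with TMM, -0.050 with DESeq2 and -0.085 to 0.088 without a library, and between untreated lines -0.0039 with TMM. Without a library MNT ran from -0.29 to 0.14 with PF-06873600 in A549, -0.052 to 0.37 with the combination, -0.26 to 0.16 with palbociclib and -0.26 to 0.17 in the interaction. With indisulam MAX ran from -0.22 to 0.047, MXD1 from -0.27 to 0.051, MXD3 from -0.46 to 0.27 and MXD4 from -0.30 to 0.14. In the interaction MAX ran from -0.046 to 0.22 and MXD4 from -0.031 to 0.41. Between untreated lines MXD3 ran from -0.50 to 0.22 and MXD4 from -0.41 to 0.039.

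Deviations of same-numbered libraries correlated in some pairs of groups, with either sign. Untreated A549 and indisulam correlated at 0.31, and palbociclib at -0.33 and -0.32 with them. Untreated SUM159 correlated at 0.32 with palbociclib, -0.28 with untreated A549 and -0.29 with indisulam. The combination and both PF-06873600 groups had values of -0.13 to 0.10 with other groups. Whether libraries share a batch was not tested. With a replicate block palbociclib against untreated gave 2337 genes, all counts stayed within 1.5 times, no member call was lost, and MXD3 in the combination against palbociclib passed (adjusted p = 0.0322). Crossing the palbociclib numbers, chosen after seeing the data, gave 3023 genes and 3 members there. TMM moved the indisulam split from 4420 higher and 2757 lower genes to 3613 and 3558. Of the other alternatives for single members, 474 values kept their direction and side of the threshold.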
